A study of Mus musculus with 3 samples.

Results

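Endothelial markers were followed during palate fusion in the mouse through 7 genes: Cdh5, Cldn5, Pecam1, Kdr, Flt1, Tek and Tie1. Members were all probe sets that the platform's gene table assigns to one of these symbols. The rule found all 7 genes, of 8251 genes on the array, through 9 of the 12422 probe sets that are not controls. Flt1 and Tie1 have 2 probe sets each and the other genes 1.

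RNA came from the medial edge epithelium, the layer where opposing palatal shelves meet, and each time point is a single array. The 0 h array held unfused epithelium from CF-1 mouse embryos of stage ED13.5, with no culture named for it. The 12 h array held fused epithelium from shelves of the same stock and stage that had been kept in contact in culture for 12 h, and the 24 h array epithelium after 24 h of contact, described by its label as transforming into mesenchyme. All 3 samples were freed with the enzyme Dispase II and their RNA was amplified before labelling. The embryos carried no stated allele or treatment, and the sources used here do not say how many were pooled. With 1 array per time point there is no replicate error and no test, and contact cannot be told apart from time in culture.

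Endothelial cells line blood vessels and lie in the mesenchyme beneath an epithelium, not within it. They hold to each other through a cadherin and a claudin of their own, and they are recognised by receptors for vascular endothelial growth factors (VEGFs) and angiopoietins. VEGF drives endothelial growth and sprouting, and angiopoietins acting on the Tie receptors steady the vessel wall. In bulk RNA such as this, fewer endothelial cells and less RNA per endothelial cell cannot be told apart.

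Of the members, 5 have an entry in the RefSeq promoter table of build GRCm38.p6, namely Cldn5, Kdr, Flt1, Tek and Tie1. The windows of 3 members chosen after their values were seen are shown: Cldn5, lower at 12 h, Kdr, a VEGF receptor, and Tie1, whose probe sets disagree. Each is the 250 bases before the start site on the gene's strand, with capitals marking GGAA, the core letters bound by ETS factors, or TTCC, the same core on the other strand. The windows are chr16:18776597-18776846 on the plus strand, chr5:75978456-75978705 on the minus strand and chr4:118489850-118490099 on the minus strand.
Cldn5: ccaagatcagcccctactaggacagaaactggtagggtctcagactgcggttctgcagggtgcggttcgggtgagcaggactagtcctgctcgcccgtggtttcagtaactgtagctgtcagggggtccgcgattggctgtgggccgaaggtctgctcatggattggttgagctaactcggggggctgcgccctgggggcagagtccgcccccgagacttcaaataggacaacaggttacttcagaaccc
Kdr: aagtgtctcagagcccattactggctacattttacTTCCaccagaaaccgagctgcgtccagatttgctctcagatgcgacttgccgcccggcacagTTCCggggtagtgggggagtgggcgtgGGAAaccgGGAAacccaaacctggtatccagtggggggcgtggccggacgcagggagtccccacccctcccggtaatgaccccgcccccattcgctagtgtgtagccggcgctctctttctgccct
Tie1: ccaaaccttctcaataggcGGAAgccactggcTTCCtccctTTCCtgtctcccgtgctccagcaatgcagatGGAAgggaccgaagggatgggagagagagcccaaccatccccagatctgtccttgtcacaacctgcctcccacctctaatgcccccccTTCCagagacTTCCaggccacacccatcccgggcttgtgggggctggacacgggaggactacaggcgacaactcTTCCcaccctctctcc

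ETS factors are a family of transcription factors known to act on many endothelial genes. The core occurred 7 times before Tie1, 4 times before Kdr, 4 times before Flt1, 2 times before Tek and 0 times before Cldn5. Of 32851 windows of the same length, 93.4% held it at least once, and 3.82% held at least as many as Tie1. The letters TATAAA, searched on both strands, occurred before Flt1 alone of the 5 and in 12.4% of all windows. The letters GGGCGG, the GC box, occurred 3 times before Flt1, 2 times before Kdr and 1 time before Cldn5, and in 32.7% of all windows. Before none of the 5 stood the letters AGATAA, bound by a family of blood and endothelial factors, which 9.99% of windows held. These matches describe letters alone.

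The signals given are deposited intensities scaled to a common trimmed mean. Scaled signals under a floor of 13.53 have no order, so a gene under it on 1 of 2 arrays has a bound in place of a ratio. Of the 7 genes, 5 exceeded this floor on every array, Flt1 on 2 arrays and Tek on 1. No member was at the floor on every array. The array at 12 h was the one on which all 7 were above it, against 5 at 0 h and 6 at 24 h. These counts rest on the scaling, since Flt1 and Tek lay close to the floor. As deposited, Tek (17.5, 13.7 and 5.9) and the Flt1 set of higher mean signal (18.1, 17.7 and 13.3) were highest at 0 h. The other Flt1 set (10.3, 23.5 and 5.6) was highest at 12 h. No share of all genes above the floor on each array is given beside these counts.

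The junction and adhesion genes gave the widest differences. Cdh5 encodes VE-cadherin, the cadherin of endothelial adherens junctions. Its scaled signal was 51.7, 263 and 160 at 0, 12 and 24 h. Both cultured samples were thus above the unfused one, by 5.09-fold at 12 h and 3.09-fold at 24 h, and the signal at 24 h was 1.65-fold lower than at 12 h. Of all genes with a ratio, 3.78% had a 12 h to 0 h ratio at least as high as that of Cdh5.

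Pecam1, an adhesion molecule of the immunoglobulin family found at endothelial contacts and on platelets and leukocytes, had the same order of arrays. Its scaled signal was 25.4, 66.2 and 51.8 at 0, 12 and 24 h. Against 0 h, it was 2.61-fold higher at 12 h and 2.04-fold higher at 24 h. The first of these was short of 2-fold with the values as deposited (log2 ratio 0.69) and with a floor at the 60th percentile (log2 ratio 0.91), and so was the second (0.03 and 0.56). A 12 h to 0 h ratio at least as high was held by 11.5% of genes.

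Cldn5, the claudin of endothelial tight junctions, took the opposite course over the first interval. Its scaled signal was 43.8, 19.96 and 94.6 at 0, 12 and 24 h. The array at 12 h was the lowest, 2.19-fold below 0 h, and the array at 24 h the highest, 4.74-fold above 12 h and 2.16-fold above 0 h. Only 2.20% of genes had a 24 h to 12 h ratio at least as high. The lower signal at 12 h was short of 2-fold with arrays centred on the median (log2 ratio -0.68), after quantile normalization (-0.67) and with a floor at the 60th percentile (-0.32).

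**Figure D1:**
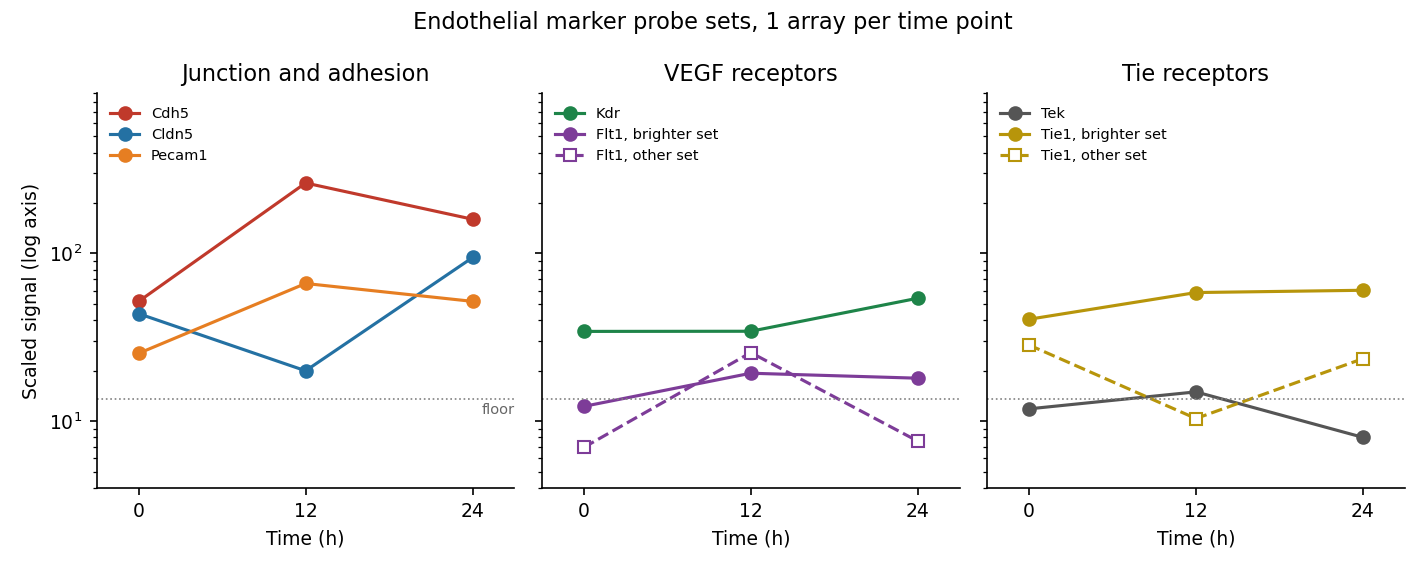
Scaled signal (log axis) of the 9 probe sets against time (h), with 1 point for each array, filled circles for the set that represents a gene, open squares for the other set and a dotted line at the floor of 13.53. Cdh5 and Pecam1 are highest at 12 h, where Cldn5 is lowest at 19.96, and the sets of Tie1 diverge at 12 h.

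The list holds a pair of VEGF receptors. Kdr, the main signalling receptor for VEGF-A on endothelium, had scaled signals of 34.3, 34.4 and 54.1 at 0, 12 and 24 h. The arrays at 0 h and 12 h were level with trimmed-mean scaling but not with the other scalings tried, where their log2 ratio was -0.69 with the values as deposited, 0.46 with median centring and 0.49 after quantile normalization. The 24 h array stood 1.57-fold above 12 h and 1.58-fold above 0 h.

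Flt1, a VEGF receptor that binds its ligand tightly and also exists as a soluble decoy, lay close to the floor. The probe set of higher mean signal gave 12.2, 19.3 and 18.0 at 0, 12 and 24 h, a lower bound of 1.43-fold higher at 12 h and of 1.33-fold higher at 24 h. The second set gave 6.97, 25.6 and 7.59 at 0, 12 and 24 h, above the floor at 12 h alone and there at least 1.90-fold higher than on either other array. Both sets were thus under the floor at 0 h and above it at 12 h, and they parted at 24 h. With the values as deposited, the log2 ratio of 12 h over 0 h by the first set was -0.03.

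Of the Tie receptors, Tek, the receptor for angiopoietins, also lay close to the floor. Its scaled signal was 11.8, 14.9 and 8.0 at 0, 12 and 24 h. It passed the floor at 12 h alone, by 1.10-fold, and no ratio of 24 h over 0 h could be given. With the values as deposited, its log2 ratio of 12 h over 0 h was -0.35.

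Tie1, a relative of Tek that pairs with it, depended on the probe set. Its brighter set has a suffix that marks a family of similar sequences, and it gave 40.5, 58.5 and 60.3 at 0, 12 and 24 h. Its other set, without a suffix, gave 28.5, 10.4 and 23.6 at 0, 12 and 24 h. At 12 h the first was thus 1.44-fold above 0 h and the second at least 2.10-fold below it, so these data give no single direction for Tie1 at 12 h. From 0 h to 24 h the log2 ratio was 0.57 by the first and -0.27 by the second.

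At 12 h, then, Cdh5 and Pecam1, 2 of the 7 genes, stood 2-fold or more above 0 h, as did 17.7% of 6379 genes with a ratio or bound. Cldn5 alone stood 2-fold or more below, as did 27.3% of genes. By probe set, 2 of 9 passed 2-fold upward (background 16.7%) and 2 downward (background 27.5%). The median log2 ratio of the members was 0.51 and that of all genes -0.21, with bounds entered at the floor. With the values as deposited the member median was -0.16 and that of all genes -0.83, and with the mean over probe sets, or without suffixed sets, the member median was 0.14. Member ratios ran from -1.13 for Cldn5 to 2.35 for Cdh5.

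Between the cultured samples, 1 of 7 genes, Cldn5, passed 2-fold upward from 12 h to 24 h and 0 downward, against 18.8% and 12.0% of 6141 genes. The median log2 ratio was -0.10 for the members and 0.17 for all genes. Cdh5 (log2 -0.72), Pecam1 (log2 -0.35) and Kdr (log2 0.65) all lay within 2-fold. The 1 higher gene is 14.3% of the 7 members, near the share of all genes. With the values as deposited or after median centring, 1 member was also at least 2-fold lower.

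From 0 h to 24 h, 6 genes had a ratio or bound, and all 6 lay above a log2 ratio of 0, although for Tie1 this holds for the brighter set alone. Cdh5, Cldn5 and Pecam1, 3 of these, passed 2-fold upward, against 14.5% of 6392 genes, and 0 downward, against 17.7%. By probe set the counts were 3 of 7 (background 13.7%) and 0 of 7 (background 18.5%). The median log2 ratio was 0.84 for the members and -0.08 for all genes. With the values as deposited, 0 members passed 2-fold upward at 24 h and the member median was -0.35, while that of all genes was -0.98. Kdr (-0.35), Flt1 (-0.44, a bound) and Tie1 (-0.43) then had log2 ratios below 0, and Cdh5 (0.63), Cldn5 (0.11) and Pecam1 (0.03) above it. Tek, without a ratio under the main scaling, also entered that median with a bound below 0. This comparison shares its arrays with the other comparisons, so the counts are not independent of each other.

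**Figure D2:**
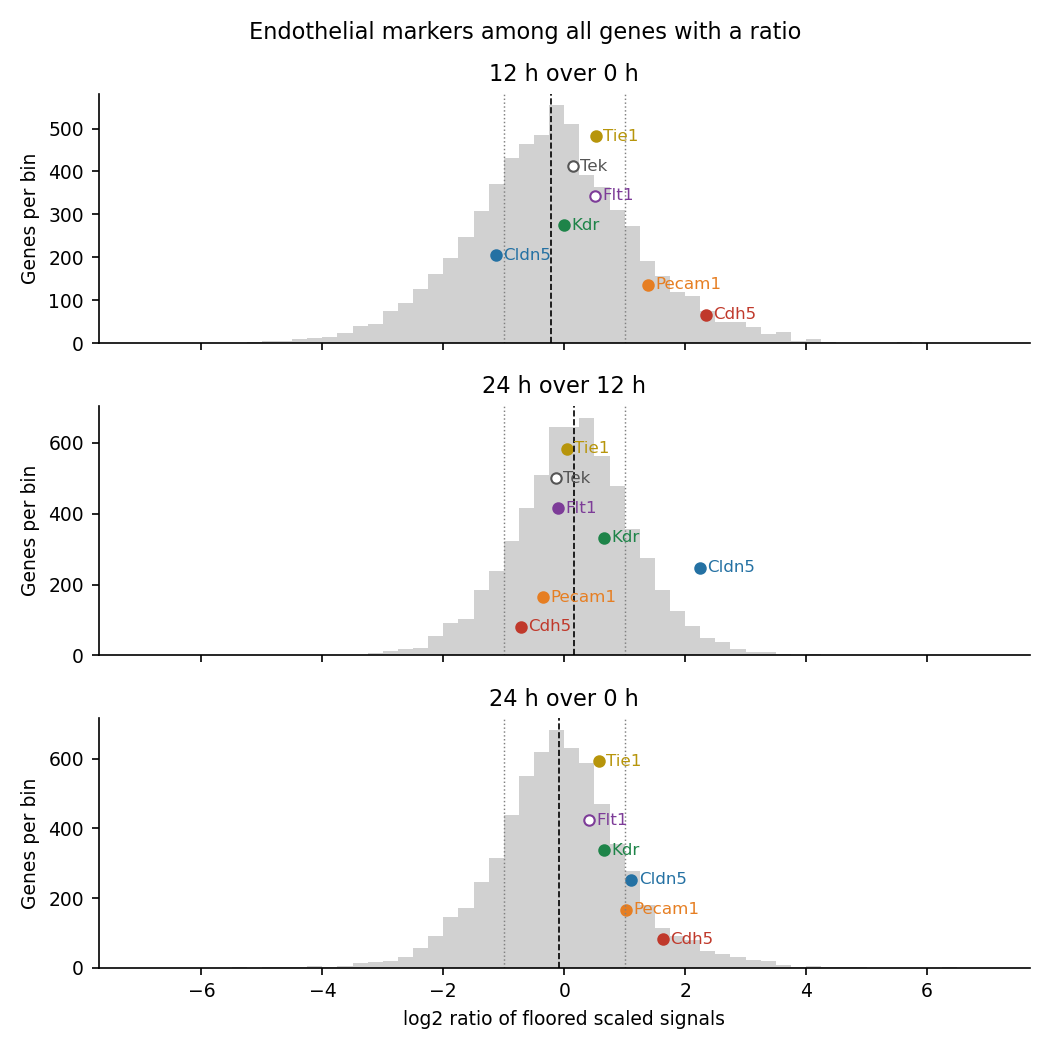
Histograms of log2 ratios of all genes with a ratio or bound (grey, genes per bin) for the 3 comparisons, with members as coloured points, open where the value is a bound; height of a point has no meaning. Dashed lines mark the median of all genes and dotted lines 2-fold. Cdh5 lies furthest to the right at 12 h over 0 h (2.35) and Cldn5 at 24 h over 12 h (2.25).

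Scaling moved the median of all genes, for 12 h over 0 h from -0.21 to -0.83 with the values as deposited and to 0.18 with median centring, so ratios were also set against it. Relative to the median of all genes, Cdh5 had a log2 ratio of 2.56 for 12 h over 0 h, within 2.38 to 2.63 over all settings tried, and 1.71 for 24 h over 0 h. Pecam1 stood at 1.597 (1.12 to 1.72) and Cldn5 at -0.92 (-0.99 to -0.11) for 12 h over 0 h. Between the cultured arrays Cldn5 stood at 2.08 (1.30 to 2.11). The member median lay above that of all genes by 0.73 for 12 h over 0 h (0.36 to 0.93) and by 0.92 for 24 h over 0 h (0.63 to 1.01), and differed by -0.27 for 24 h over 12 h (-0.38 to -0.09). Tie1 turned sign under some settings in all 3 comparisons and Tek under 1 setting for 24 h over 12 h.

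**Figure D3:**
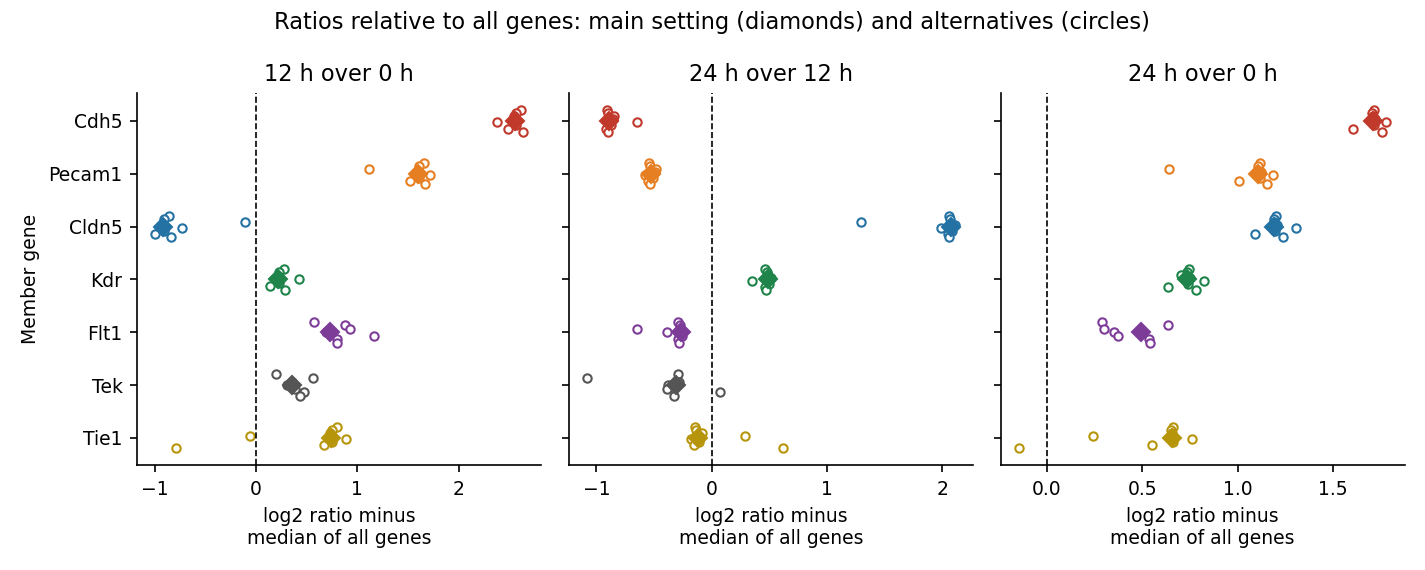
For each member, log2 ratio minus the median log2 ratio of all genes, under the main setting (diamonds) and the alternatives (circles), in the 3 comparisons. Cdh5 and Pecam1 stay right of 0 for 12 h over 0 h and 24 h over 0 h, whereas Tie1 crosses 0.

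The gauge of spread used is how far probe sets of 1 gene disagree. Their log2 ratios had an SD about the gene's mean of 1.24 for 12 h over 0 h, 0.82 for 24 h over 12 h and 1.07 for 24 h over 0 h, over 672, 687 and 748 genes. Because these sets share the same arrays, the SD does not measure variation between arrays, dissections or embryos. The 12 h to 0 h ratio was 1.89 times this SD for Cdh5 and 1.12 times for Pecam1, and 0.91 times for Cldn5. Cldn5 reached 2.75 times the SD for 24 h over 12 h. The multiples for 24 h over 0 h were 1.52 for Cdh5, 1.04 for Cldn5 and 0.96 for Pecam1. Every measured ratio of Kdr and Tie1 was under 1 SD, as was the measured ratio of Flt1 for 24 h over 12 h. The other values of Flt1, Tek and the second set of Tie1 are bounds, which do not place a ratio within the SD, and the bound of the second Flt1 set for 24 h over 12 h exceeded it (1.13). Cdh5, Cldn5, Pecam1, Kdr and Tek have 1 probe set each, so no second measurement stands beside theirs.

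The arrays also differed in the balance of 3' and 5' signal. The 3' to 5' signal ratio of the control for Gapdh was 0.828, 14.9 and 12.6 at 0, 12 and 24 h, and that for Actb 1.02, 11.9 and 2.97. Its part in the member ratios was not tested.

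Ligands and co-receptors of the same pathways showed no common course. Of 9 on the array, 7 had a 12 h to 0 h value, of which 3 passed 2-fold upward and 1 downward, against 17.7% and 27.3% of all genes, and the median log2 ratio was -0.14. Vegfa, the ligand of Kdr and Flt1, had scaled signals of 21.4, 19.4 and 29.4 at 0, 12 and 24 h. Pgf, a ligand of Flt1, had 33.9, 16.1 and 32.9, with its lowest value at 12 h, as for Cldn5. Vegfb, another ligand of Flt1, had 111, 55.8 and 83.9, in the same order of arrays.

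Vegfc, a ligand of lymphatic endothelium, had signals of 17.04, 43.8 and 10.7, and was above the floor at 0 h and 12 h. Angpt2, an angiopoietin that can oppose Tek signalling, had 10.9, 31.1 and 36.1 and exceeded 0 h by at least 2.29-fold at 12 h and 2.67-fold at 24 h. Angpt1, the activating ligand of Tek, was under the floor on all 3 arrays, as was Vegfd. Nrp1, a co-receptor for VEGF that other cell types also make, had 53.8, 295 and 111 and was 5.47-fold higher at 12 h. Its second probe set gave a log2 ratio of 0.30. Apln, a peptide of endothelial tip cells, had 74.9, 62.3 and 59.7, within 2-fold throughout.

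Of 20 signal transducers of these receptors on the array, 18 had a 12 h to 0 h value, of which 3 passed 2-fold upward and 5 downward, against 17.7% and 27.3% of all genes (median log2 ratio -0.12). The kinase Yes1 was 7.20-fold higher, the kinase Akt1 16.4-fold lower and the adaptor Pxn at least 5.66-fold lower. Rasa1, a brake on Ras, was 5.60-fold lower at 24 h than at 0 h. Of 9 cytoplasmic and junctional partners of cadherins and claudins, all with a value at 12 h, 2 passed 2-fold upward and 1 downward, beside the same shares of all genes (median log2 ratio 0.71). The scaffold Tjp1, which binds claudins, was 6.76-fold higher at 12 h, and Ctnnb1, which binds cadherin tails, 2.42-fold higher. Jup, a catenin, was at least 4.26-fold lower, and Cdh2, another cadherin of endothelium and mesenchyme, 3.77-fold lower at 24 h than at 0 h. Epithelium makes these partners as well.

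A wider list of endothelial genes did not share the members' medians. Of its 34 genes on the array, 10 were above the floor on no array. At 12 h against 0 h, 4 of 24 passed 2-fold upward and 4 downward, against 17.7% and 27.3% of all genes, and the median log2 ratio was -0.25 beside -0.21 for all genes. At 24 h against 0 h these were 4 and 2 of 23, against 14.5% and 17.7% (median log2 ratio 0.13).

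Procr, the endothelial protein C receptor, had scaled signals of 14.7, 52.7 and 60.3 at 0, 12 and 24 h and was 3.57-fold higher at 12 h. Cd93, a lectin-like receptor of endothelium and myeloid cells, had 41.5, 142 and 143, 3.43-fold higher at 12 h. Edn1, the vasoconstrictor endothelin, exceeded its 0 h signal by at least 3.20-fold at 12 h and 4.0-fold at 24 h. Its other set lay near the floor, with a bound of 0.09 on the log2 scale at 12 h. F2r, a thrombin receptor, was 4.55-fold higher at 12 h by its brightest set, but its other sets gave log2 ratios of -2.04 and, as a bound, -1.79.

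Other genes of the wider list are named after their values were seen. Acvrl1 has 3 probe sets, and Vwf, Ets1, Sox17, Sox18, Flt4 and Gata2 have 2 each. The signals given are those of the brightest set alone. Icam2 and the clotting factor carrier Vwf were above the floor at 0 h alone, with signals of 28.5 and 24.2, and were lower at 12 h by at least 2.11-fold and 1.79-fold. Gja5, a connexin of arterial endothelium, was at least 3.28-fold lower at 12 h from a signal of 44.4. Acvrl1, an endothelial receptor of the TGF-beta family, had 73.4, 23.6 and 80.1, and its co-receptor Eng 104, 74.1 and 201. Both Acvrl1 and Eng had their lowest signal at 12 h, as Cldn5 did. Ets1 (19.7, 32.6 and 23.0) and the endothelial factor Sox7 (27.8, 46.2 and 49.1) had their lowest at 0 h, as Cdh5 and Pecam1 did. In contrast, Sox17 (50.4, 38.8 and 57.5) and Sox18 (44.3, 36.4 and 63.3) had their lowest at 12 h. So did Flt4, Ramp2, Gata2 and Ece1 of this list.

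**Figure D4:**
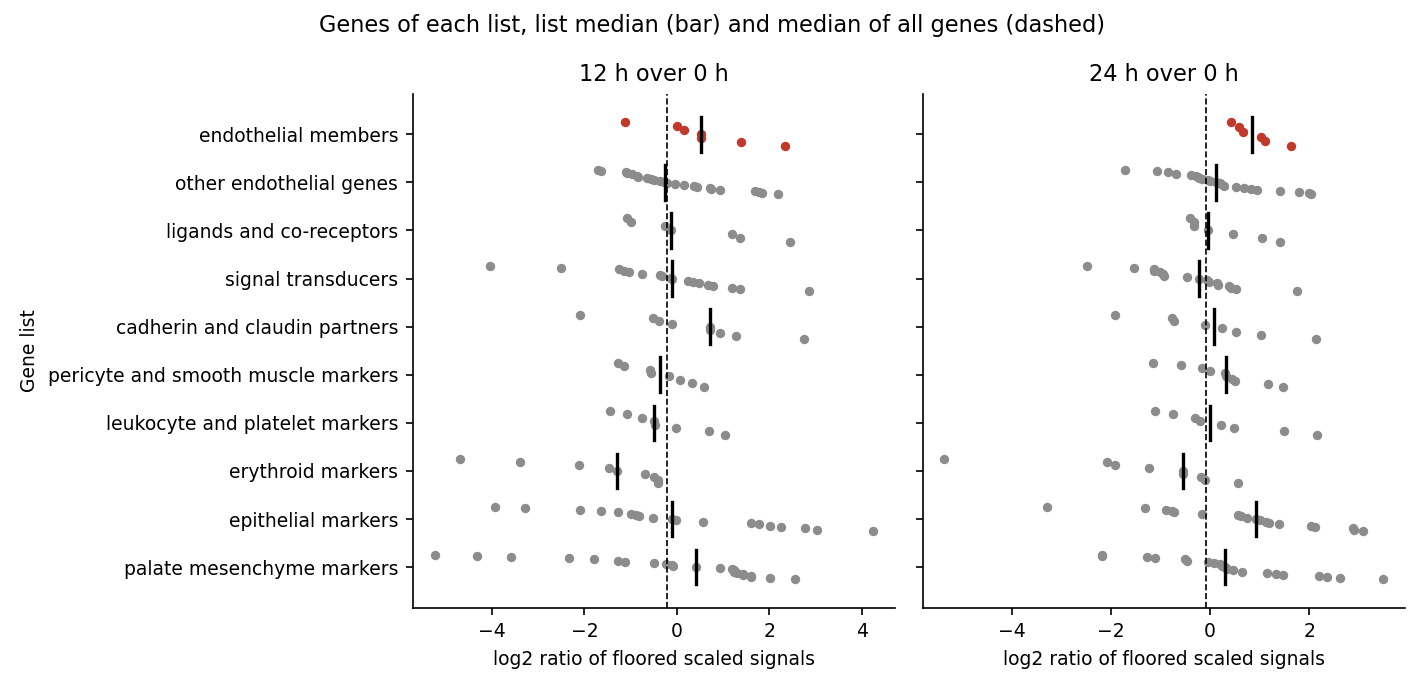
Log2 ratios of the genes of 10 lists for 12 h over 0 h and 24 h over 0 h, with 1 point for each gene with a ratio or bound, a bar at the list's median and a dashed line at the median of all genes. The endothelial members (red) have medians of 0.51 and 0.84, and the erythroid list lies lowest at 12 h with a median of -1.29. For 24 h over 0 h the epithelial list has the highest median, 0.92.

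Other cell types that the tissue could hold were measured on the same arrays. The summed scaled signal of the 7 members was 220, 477 and 447 at 0, 12 and 24 h, of which Cdh5 alone gave 51.7, 263 and 160. A list of 13 genes, mostly markers of pericytes and smooth muscle, cells that wrap vessels, summed to 349, 242 and 382. Of them Myh11, Cnn1 and Abcc9 were under the floor on every array. This list also holds Pdgfb, by which endothelium recruits pericytes (14.5, 18.1 and 40.3), so the sum is not of pericyte and muscle genes alone. Mcam, made by pericytes and endothelium alike, had 86.5, 35.6 and 39.0. Tagln, a smooth muscle cytoskeletal gene, had 54.7, 24.8 and 68.3, and Kcnj8, a pericyte potassium channel, had 3.31, 20.3 and 30.2, so its 24 h signal exceeded the floor at 0 h by at least 2.24-fold. The sum over 18 leukocyte and platelet markers was 359, 374 and 692, with 10 of them, among them the pan-leukocyte gene Ptprc and the platelet genes Gp9 and Pf4, above the floor on no array. Most of the higher sum at 24 h came from Cd14 (74.2, 73.1 and 209) and Laptm5 (63.0, 130 and 280), myeloid and leukocyte genes. Their 24 h signals were 2.82-fold and 4.45-fold above 0 h. Laptm5 was read by a set with a family suffix, and its other set stayed close to the floor. Coro1a, a leukocyte actin regulator, was 2.15-fold lower, and 2 of 8 leukocyte and platelet genes passed 2-fold upward and 1 downward for 24 h over 0 h (14.5% and 17.7% of all genes), with a median log2 ratio of 0.005. The sum over 10 erythroid markers was 6544, 1632 and 1580, and 5 of 9 passed 2-fold downward at 12 h and 0 upward, against 27.3% and 17.7% of all genes. Of these sums, Hbb-y gave 3158, 1290 and 839 by its brighter set, whose suffix marks a family of similar sequences. The other set of Hbb-y, not in the sums, gave 2926, 62.7 and 56.0, a log2 ratio of -5.54 for 12 h over 0 h against -1.29 by the brighter set. Red cells are the content of vessels. The signals of the globins Hba-x, Hba-a1, Hbb-y and Hbb-bh1 were highest at 0 h, whereas Klf1 of the same list was highest at 24 h (25.8, 15.9 and 38.1).

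Palate mesenchyme markers were above the floor in 22, 20 and 21 of 23 genes at 0, 12 and 24 h, with summed signals of 7633, 13457 and 14460. Genes of this list went both ways at 12 h: 10 of 23 passed 2-fold upward and 7 downward, against 17.7% and 27.3% of all genes. The collagen gene Col1a2 was 5.91-fold higher by its brighter set (log2 ratio -1.21 by the other). Mfap2 was 37.8-fold, Prrx2 19.99-fold and Twist2 12.1-fold lower. Epithelial markers were above the floor in 19, 14 and 18 of 22, with sums of 1819, 3624 and 3982. At 12 h, 7 of 19 epithelial genes were at least 2-fold above 0 h and 5 at least 2-fold below (17.7% and 27.3% of all genes). By their brighter sets Dsc2 was 18.9-fold and Pkp1 8.11-fold higher. The dimmer set of Pkp1 rose less (log2 0.18), and that of Dsc2 never passed the floor. Cldn4 was at least 15.2-fold lower and Sfn at least 9.71-fold lower. For 24 h over 0 h, 8 of 19 epithelial genes passed 2-fold upward and 2 downward, against 14.5% and 17.7% of all genes. Their median log2 ratio was 0.92, beside 0.84 for the endothelial members. For mesenchyme markers it was 0.30, with 7 of 23 genes upward and 4 downward. The basal keratins Krt5, Krt14 and Krt15, defining markers of stratified epithelium, were under the floor on all 3 arrays. The keratins Krt6a, Krt8, Krt17, Krt18 and Krt19, each by its brightest set, were above it on all 3, as were Cdh1, Epcam and Trp63. No marker on these lists was at 0 on any array. What part the other cell types had in the member ratios was not tested.

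Genes with the most similar course were sought among the 4682 genes that exceeded the floor on every array, by the Euclidean distance between pairs of log2 ratios (12 h over 0 h and 24 h over 12 h), which rests on 3 arrays. Nearest to Cdh5 were Slc25a51, Phtf2 and Utp18 at distances of 0.071, 0.075 and 0.10, with 22 genes within 0.25. For Cldn5 they were Slc3a2, Col6a1 and Gss at 0.079, 0.11 and 0.16, with 6 genes within 0.25. Pecam1 had 72 genes within 0.25, led by Fam50a, Sod1 and Itgb1, and Kdr had 130, led by Tspan33, Rps29 and Sgce. Tie1, by its brighter set, had 123, led by Snrnp27, Pdia5 and Efna4. No member was among the nearest genes of another.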

How the data were processed

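RNA of 3 samples, 1 per time point, was hybridized to 1-colour Affymetrix arrays. The deposited intensities are linear signals, 1 for each of 12488 probe sets, analysed by the submitters with Microarray Suite 5.0 and GeneSpring 6.0 per the labels, which do not state which program wrote the values and whether they were scaled. Leaving out 66 controls, arrays were scaled here to a common trimmed mean (2% off each end; factors 0.676, 1.09 and 1.36 at 0, 12 and 24 h), floored at the pooled 40th percentile and taken to log2. A gene is its probe set of highest mean signal among 10833 sets naming 1 gene. Another 396 name several genes and 1193 none. Symbols were updated through RefSeq identifiers, matching 10817. The table gives no detection calls. Precision is limited by the number of arrays.

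Calls are differences of at least 2-fold, described beside the share of all genes. Members and lists were chosen with earlier results of these data known. Named were all members and ligands, and the 4 genes of each other list that differed most from 0 h. Further genes of the wider endothelial list are marked. Also named outside this rule were Klf1 and, by their place against the floor alone, genes of the pericyte, leukocyte and epithelial lists. Cd68 of the leukocyte list, which the rule names, is given within counts and sums alone. The steps were tested on simulated data (Python 3.11.15, pandas 2.3.3). Large changes were planted there in bright genes, with noise below the spread between probe sets seen here. That test therefore does not gauge calls on dim members.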

Additional observations from a re-analysis of the deposited data

How the results depend on the processing

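Alternatives were the values as deposited, centring on the median, quantile normalization, a floor at the 20th or the 60th percentile, the mean over probe sets, removal of probe sets with a suffix, a 3-fold rule, and scaling and floor from the 2 arrays compared. For 12 h over 0 h, the 2 higher members became 1 with the values as deposited, the 60th percentile floor or the 3-fold rule. The 1 lower member became 0 after median centring, quantile normalization, the 60th percentile floor or the 3-fold rule, and 2 without suffixed sets, where Tie1 joined Cldn5 with a bound of -1.07 in place of 0.53. For 24 h over 12 h, 1 member was at least 2-fold lower with the values as deposited and after median centring, in place of 0. For 24 h over 0 h, the 3 higher members became 1 under the 3-fold rule and 0 with the values as deposited, where the member median was -0.35. The other 65 values of counts and medians stayed within 1.5 times or within the SD between probe sets, as did 153 of 154 single ratios, and no ratio of at least 2-fold changed sign. That SD (1.24, 0.82 and 1.07 for the 3 comparisons) exceeded many member ratios, so staying within it does not show a stable ratio. With the values as deposited, Pecam1 for 24 h over 0 h went from 1.03 to 0.03 and Kdr from 0.66 to -0.35. Both were counted as unmoved. No paired analysis was possible because each time point has 1 array. Signals near the floor limit what can be said of Flt1, Tek and the second set of Tie1.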
